A study of Homo sapiens with 6 samples.

Results

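MAP2 and 7 other genes of proteins that bind microtubules or their tubulin subunits were followed in MDA-MB-231 cells given selamectin: MAP2, MAP4, MAPT, MAP1A, MAP1B, MAP1S, MAP7 and STMN1. The 8 genes were chosen by earlier results of the same 6 arrays, in which MAP2 was among the genes lower after selamectin, so their differences between the groups are given as descriptions and carry no test. All 8 were found among the 18417 genes measured by a probe group with 1 gene symbol. Where a gene had several such groups, the brightest was taken.

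MDA-MB-231 is a long-established line from a human breast cancer of the triple-negative class, and its cells look mesenchymal. Both groups were this line and carried no further genetic change that the labels name: 3 control cultures, titled untreated, and 3 cultures kept with 1 µM selamectin for 24 h. Selamectin is an avermectin, a class of macrocyclic lactones given against parasites, and the series title places avermectins as inhibitors of the SIN3 corepressor. The protocol speaks of vehicle where the titles say untreated, so whether the control cultures received the drug's solvent is not settled by the labels. A single line, dose and time were measured, and the labels call the 3 replicates of a group independent without saying what was repeated, so p-values measure the spread between these arrays only.

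Each value is a log2 expression value of a transcript cluster, which is the set of probes made for a locus, and a difference of 1 is a doubling of the signal. A cluster pools the splice forms of its gene, so the long and short forms for which MAP2 and tau are known were not separated. Array medians lay between 7.47 and 7.51. Over all genes the median log2 difference, selamectin minus untreated, was 0.04, and the median SD within a group was 0.11. The first principal component (45.8% of the variance) separated the groups, and the second (20.8%) separated selamectin array 3 from the remaining 5. With limma and Benjamini-Hochberg adjustment over all genes, 864 genes (4.69%) passed an adjusted p of 0.05, 420 of them lower (2.28%) and 444 higher (2.41%) with selamectin. For 4660 genes (25.3%) the 2 groups of arrays did not overlap. Without adjustment, p was under 0.05 for 3674 genes (19.9%), with 11.7% of all genes higher and 8.21% lower, and the difference was positive for 63% of all genes. The number of arrays limits the precision of every value.

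Microtubules are hollow polymers of alpha- and beta-tubulin that grow and shrink at their ends. Structural microtubule-associated proteins, or MAPs, bind along the lattice, stabilise and space the polymers and alter how motor proteins use them, while stathmin binds free tubulin dimers and promotes disassembly. MAP2 is best known from the dendrites of neurons and tau from axons, whereas MAP4, MAP7 and stathmin are made in many dividing cells, tumour lines included.

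Sequences before annotated starts are shown for MAP2, MAP4 and MAP7, all lower on every selamectin array. Over all windows of these genes the G and C content overlaps, at 37.6% to 51.2% for MAP2, 34.4% to 76.8% for MAP4 and 31.2% to 77.6% for MAP7. The windows printed below are a part of these. For MAP2 they are the windows lowest in G and C, and for MAP4 and MAP7 the window highest in G and C. The difference in base composition between the printed windows comes in part from this choice. The printed windows are RefSeq sequences of GRCh38.p14, 250 bases before a start, written 5′ to 3′ on the gene's strand. Capitals mark GGGCGG or its reverse complement CCGCCC, the GC box bound by SP and KLF proteins. The printed MAP2 windows lie at chr2:209661246-209661495 and chr2:209579082-209579331 on the plus strand. The printed MAP4 window lies at chr3:48088849-48089098 and the printed MAP7 window at chr6:136550423-136550672, both on the minus strand.
MAP2 window 1: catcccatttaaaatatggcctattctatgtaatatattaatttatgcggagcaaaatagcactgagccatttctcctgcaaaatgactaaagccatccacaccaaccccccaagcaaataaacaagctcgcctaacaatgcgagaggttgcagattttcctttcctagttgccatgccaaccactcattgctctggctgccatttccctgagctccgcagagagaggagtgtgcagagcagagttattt
MAP2 window 2: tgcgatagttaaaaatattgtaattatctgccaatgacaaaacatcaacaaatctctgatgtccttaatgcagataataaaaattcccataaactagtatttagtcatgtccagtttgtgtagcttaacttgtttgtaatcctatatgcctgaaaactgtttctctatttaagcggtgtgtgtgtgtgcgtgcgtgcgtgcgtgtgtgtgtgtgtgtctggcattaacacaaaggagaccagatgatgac
MAP4 window 1: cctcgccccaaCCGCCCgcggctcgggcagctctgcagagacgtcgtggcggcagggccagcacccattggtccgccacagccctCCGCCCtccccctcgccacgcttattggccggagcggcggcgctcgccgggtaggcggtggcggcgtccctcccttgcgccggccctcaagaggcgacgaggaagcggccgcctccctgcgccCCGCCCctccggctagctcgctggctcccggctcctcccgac
MAP7 window 1: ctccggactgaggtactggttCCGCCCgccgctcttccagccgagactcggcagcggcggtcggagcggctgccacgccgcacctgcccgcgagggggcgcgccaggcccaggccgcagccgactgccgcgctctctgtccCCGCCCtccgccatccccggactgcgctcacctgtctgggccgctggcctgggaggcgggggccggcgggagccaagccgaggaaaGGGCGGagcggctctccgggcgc

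The printed MAP2 windows held 44.4% and 37.6% G or C and 4 and 6 CpG dinucleotides, and neither held a GC box. The MAP4 window held 76.8% G or C, 33 CpG and 3 GC boxes. The MAP7 window held 77.6% G or C, 33 CpG and 3 GC boxes. The median window of the 35116 in the table had 58.0% G or C and 11 CpG. Searched on both strands, GGGCGG was present in 42.6% of all windows, in 9 of the 17 windows of the 7 members with an entry, and in at least 1 window of 6 of the 7. MAP2 was the exception, with none in its 3 windows, which ranged from 37.6% to 51.2% G or C. MAP4 and MAP7 also have windows of low G and C content (down to 34.4% and 31.2%). GGGCGG was in 1 of 2 MAP4 windows and 1 of 4 MAP7 windows. EML2, another microtubule-binding gene described below, had a log2 difference of -0.97. It held GGGCGG in 3 of its 5 windows, which ranged from 58.0% to 72.4% G or C. The share of all genes with GGGCGG in at least 1 window was not computed, and no relation of these sequences to the differences was tested. The MAP2 window left out held 51.2% G or C and 8 CpG. The printed windows are thus not all of the starts of these genes.

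Other motifs were searched in the same way, namely CACGTG (the E-box bound by MAX and its partners, MXD proteins included), CTGTCA (TGIF), TTCAGCACC (the left part of the RE1 element bound by REST) and TATAAA (the TATA box). CTGTCA, held by 13.0% of all windows, was found in 1 window each of MAP2, MAP1A and STMN1. For MAP2 this was the window not printed. The E-box, the RE1 part and the TATA box were found in no MAP2 window. CACGTG, held by 6.34% of all windows, was found among the members only in 1 of 3 STMN1 windows. TTCAGCACC, held by 0.288% of all windows, was found in no member window, and TATAAA (10.7% of all windows) in both MAP1B windows only. No matches overlapped in the 4 printed windows. A match to these letters describes the sequence and says nothing of binding in these cells.

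MAP2 was lower on every selamectin array. Its log2 values were 9.21, 8.73 and 9.23 on the untreated arrays and 8.33, 8.23 and 7.57 on the selamectin arrays. The groups did not overlap, with 0.40 between the lowest untreated and the highest selamectin value, and selamectin array 3, the array apart on the second component, was the lowest. The mean was 9.06 ± 0.28 (SD, n = 3) without the drug and 8.05 ± 0.41 (SD, n = 3) with it, a log2 difference of -1.01 ± 0.19 (SE), or 2.01-fold lower. In bulk RNA, fewer cells that make a transcript and less of it per cell cannot be told apart.

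MAP2 also varied within its groups. Its pooled SD of 0.35 was exceeded by 1.02% of all genes, and the untreated arrays alone spanned 0.49 and the selamectin arrays 0.76. Its difference was the 15th of 18417 in absolute size. Without selamectin array 3 the difference was -0.78, and without untreated array 2, the lowest of its group, -1.17. Among genes that passed the threshold and were lower, MAP2 ranked 8th. PRICKLE1 at -1.0124 stood just before it and UNC5A at -1.0013 just after, with HSPA2 at -1.11 and ANXA3 at -0.99 next on either side. MAP2 was chosen with its fall in this contrast known, so nothing is read from its ranks.

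**Figure D1:**
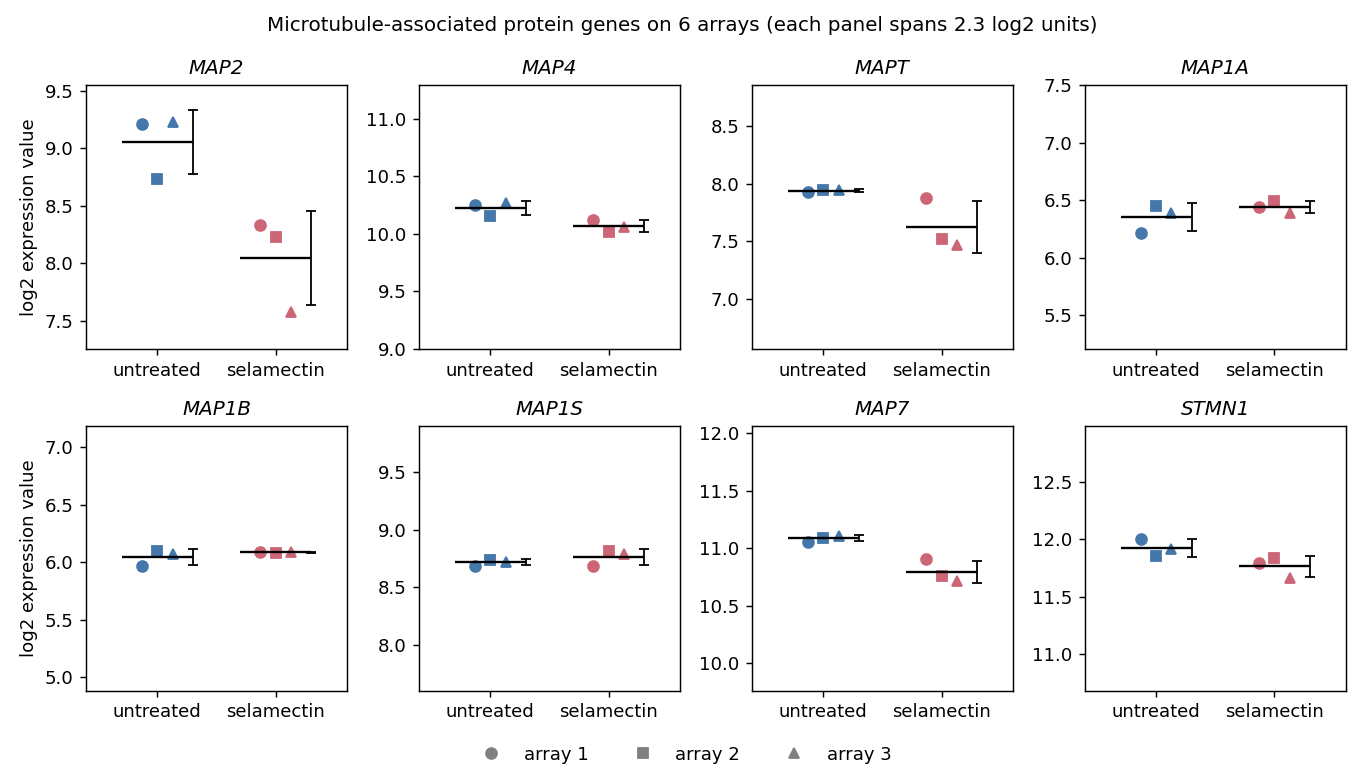
Log2 expression value of the 8 genes on each array, untreated in blue and selamectin in red, with the array number shown by the symbol, horizontal lines for group means and bars for 1 SD. Every panel spans the same range of log2 units around its own centre, so distances, but not heights, can be compared between panels. The step in MAP2, from a mean of 9.06 to 8.05, is the widest, and MAP1A, MAP1B and MAP1S overlap between the groups.

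MAP4 and tau share with MAP2 a C-terminal block of microtubule-binding repeats. MAP4, the family member made in most tissues, read 10.25, 10.16 and 10.27 without the drug and 10.12, 10.02 and 10.06 with it. The groups came within 0.04 of each other without overlap, and the log2 difference was -0.16 ± 0.09 (SE). The distance between the group means was thus small, although each group was tight (SD 0.06 and 0.05, n = 3).

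MAPT, the gene of tau, read 7.93, 7.94 and 7.95 on the untreated arrays and 7.88, 7.51 and 7.47 on the selamectin arrays. The untreated arrays were nearly identical (SD 0.01), while the selamectin arrays split into 1 close to the untreated level and 2 lower (SD 0.22). The log2 difference was -0.32 ± 0.11 (SE), and it was -0.45 without selamectin array 1 and -0.24 without selamectin array 3. MAPT has no promoter entry in the table used for the sequences.

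The MAP1 genes encode large precursors that are cut into heavy and light chains. MAP1A, known from mature neurons, read 6.21, 6.45 and 6.39 without and 6.44, 6.49 and 6.39 with selamectin, a log2 difference of 0.09 ± 0.08 (SE). MAP1B, known from growing axons, read 5.96, 6.10 and 6.07 without and 6.09, 6.08 and 6.09 with selamectin, a difference of 0.04 ± 0.07 (SE). Both genes overlapped between the groups. Both were also left out by the filter on dim genes that was tried as an alternative.

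MAP1S, the widely made member of the family, read 8.69, 8.74 and 8.72 without and 8.68, 8.81 and 8.79 with selamectin. Its groups overlapped too, and the log2 difference was 0.05 ± 0.09 (SE). All 3 MAP1 genes therefore lay near the median difference of all genes, 0.04. A second quantile normalization of the arrays turned the sign of MAP1B, to -0.0077, and lowered the median of all genes to 0.01.

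MAP7, also called ensconsin, binds along microtubules and recruits kinesin-1. It read 11.06, 11.09 and 11.11 on the untreated arrays and 10.91, 10.76 and 10.72 on the selamectin arrays. The groups were 0.15 apart and each was tight (SD 0.03 and 0.10, n = 3). The log2 difference was -0.29 ± 0.08 (SE), with a range of -0.35 to -0.25 when any 1 array was left out.

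STMN1, stathmin, read 12.00, 11.85 and 11.91 on the untreated arrays and 11.80, 11.84 and 11.66 on the selamectin arrays in its brightest cluster. The groups came within 0.015 of each other without overlap, and the log2 difference was -0.16 ± 0.08 (SE). A second, dimmer STMN1 cluster ran the other way. It read 6.29, 6.57 and 6.52 without and 6.68, 6.81 and 6.49 with selamectin, a difference of 0.21, and the mean of both clusters differed by 0.02. The direction for STMN1 thus depended on the cluster taken.

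**Figure D2:**
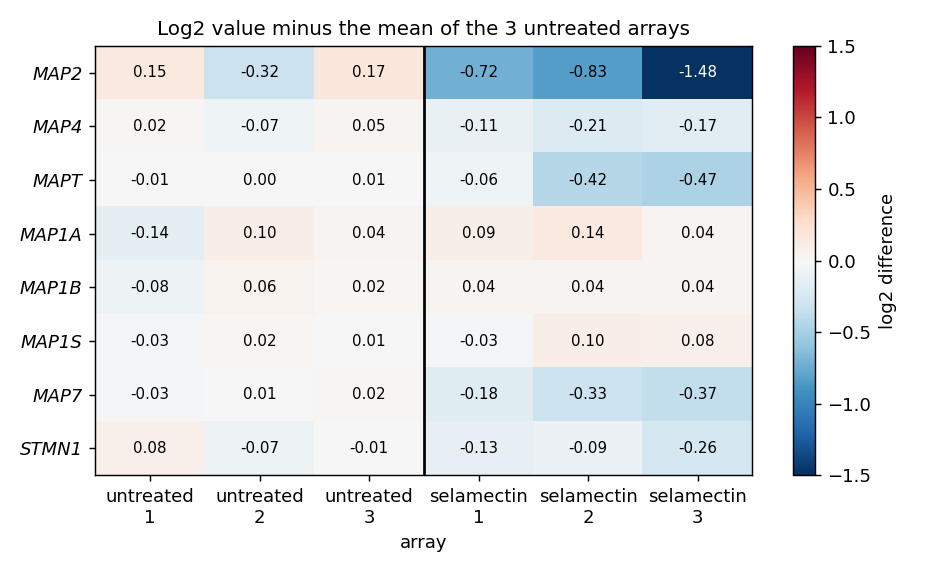
Log2 value of each gene on each array minus that gene's mean over the 3 untreated arrays, with the colour running from blue (lower) to red (higher). MAP2 reads -0.72, -0.83 and -1.48 on the selamectin arrays, and MAPT and MAP7 deepen on arrays 2 and 3, at -0.42 and -0.47 for MAPT and -0.33 and -0.37 for MAP7.

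In all, 1 of the 8 genes, MAP2, passed the threshold, beside 4.69% of all genes. The groups did not overlap for 5 of the 8, namely MAP2, MAP4, MAPT, MAP7 and STMN1, each lower with selamectin, beside 25.3% of all genes. Since the genes were selected on this contrast, nothing is read from these counts. MAP2 missed the threshold without untreated array 1, without untreated array 3, and when all 33297 transcript clusters were tested. MAP7 passed it in 2 of the 16 other settings, a second quantile normalization and array weights. MAPT passed it in 1 of 15, the fit without selamectin array 1. The median log2 difference of the 8 was -0.16, beside 0.04 for all genes. A filter at the median level of all genes would keep 5 of the 8 (MAP2, MAP4, MAP1S, MAP7 and STMN1).

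The other genes of the microtubule system were taken as 10 lists written with earlier results of these data known, which together named 231 genes, 217 of them measured. Of these, 4 passed the threshold as higher and 5 as lower with limma, 4.15% of those measured, beside 4.69% of all genes. Their median log2 difference was 0.04, equal at this rounding to that of all genes. The direction was positive for 129 (59.4%) and negative for 88, beside 63% positive over all genes. At an unadjusted p under 0.05 were 22.6% of the 217, beside 19.9% of all genes.

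Among 27 other structural MAPs, which include the EML, CAMSAP, doublecortin and MAP6 families, 1 fell and none rose (3.7%, beside 4.69% of all genes). That gene was EML2, a member of the echinoderm MAP-like family that binds microtubules. It read 10.92, 11.20 and 10.93 on the untreated arrays and 10.06, 10.16 and 9.91 on the selamectin arrays. The log2 difference was -0.97 ± 0.11 (SE, limma adjusted p = 0.0027), close in size to that of MAP2 but with a smaller spread (SD 0.16 and 0.13, n = 3). EML2 passed the threshold in all 16 other settings, with differences from -1.03 to -0.87 and adjusted p from 0.000133 to 0.0388. The other 26 did not pass, and the median of the list was 0.01.

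The relatives of stathmin, STMN2, STMN3 and STMN4, are known mainly from neurons. None of the 3 passed the threshold or reached an unadjusted p of 0.05, beside 4.69% and 19.9% of all genes. The smallest p belonged to STMN2, at a log2 difference of 0.16 (limma adjusted p = 0.29). Of 20 tubulin genes, which encode the subunits themselves and the gamma-, delta- and epsilon-tubulins, none passed with limma, while 4 lay higher and none lower at an unadjusted p under 0.05, which is 20% of the list beside 19.9% of all genes. The difference was positive for 16 of the 20 (80%, beside 63% of all genes), with a median of 0.11. TUBG1, the gamma-tubulin of the nucleating ring, had the smallest p. It read 12.86, 13.07 and 12.97 without and 13.18, 13.17 and 13.30 with selamectin (log2 difference 0.25 ± 0.08 SE, limma adjusted p = 0.088).

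Of 23 plus-end tracking proteins, which ride growing ends, 1 fell and none rose (4.35%, beside 4.69% of all genes). It was CLIP4, of the CAP-Gly linker family, which read 8.23, 8.02 and 8.12 without and 7.75, 7.40 and 7.47 with selamectin (log2 difference -0.59 ± 0.11 SE, limma adjusted p = 0.016). At an unadjusted p under 0.05, 7 of the 23 were lower and 3 higher, 43.5% in all beside 19.9% of all genes. None of the 14 severing and depolymerising proteins, katanins, spastin and the kinesin-13 and kinesin-8 motors among them, passed the threshold or reached an unadjusted p of 0.05. Over all genes these shares were 4.69% and 19.9%. KIF2C, the depolymerase of mitotic centromeres, had the smallest p (log2 difference -0.21, limma adjusted p = 0.31). Of 19 genes of the gamma-tubulin ring and the augmin complex none passed with limma, and 1 was higher and 2 lower at an unadjusted p under 0.05 (15.8%, beside 19.9% of all genes). HAUS4, an augmin subunit, had the smallest p (-0.33, limma adjusted p = 0.14).

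Among 20 prefoldin, chaperonin and tubulin-cofactor genes, which fold and assemble tubulin dimers, TBCB alone passed the threshold, and it rose. That is 5% of the list, beside 4.69% of all genes. Tubulin cofactor B captures folded alpha-tubulin. Its values were 10.85, 11.09 and 11.14 without and 11.33, 11.45 and 11.61 with selamectin (log2 difference 0.44 ± 0.10 SE, limma adjusted p = 0.039). Of 27 enzymes that modify tubulin, HDAC6 alone passed (3.7%, beside 4.69% of all genes), and it fell. HDAC6 is the main deacetylase of alpha-tubulin. It read 9.03, 9.00 and 9.12 without and 8.76, 8.48 and 8.48 with selamectin (log2 difference -0.48 ± 0.10 SE, limma adjusted p = 0.028).

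Of 36 kinases and phosphatases that act on MAPs or stathmin, 2 rose and 2 fell (11.1%, beside 4.69% of all genes). GSK3A, a tau kinase, read 10.13, 10.53 and 10.46 without and 10.85, 10.93 and 10.90 with selamectin (log2 difference 0.52 ± 0.11 SE, limma adjusted p = 0.024). PPP1CA, a catalytic subunit of protein phosphatase 1, rose by 0.41 ± 0.09 (SE, limma adjusted p = 0.032). Of the kinases that fell, MARK4 belongs to the family named for phosphorylating MAPs at their repeats, which releases them from microtubules. MARK4 read 9.08, 8.88 and 8.95 without and 8.64, 8.59 and 8.54 with selamectin (log2 difference -0.38 ± 0.09 SE, limma adjusted p = 0.046). The other was CAMK2D, a calcium- and calmodulin-dependent kinase, with a log2 difference of -0.39 ± 0.09 (SE, limma adjusted p = 0.040). The groups of arrays did not overlap for 12 of the 36, these 4 included, beside 25.3% of all genes. Genes that pass are picked for a difference between the groups, so nothing is read from this.

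Of 28 kinesin-1, dynein and dynactin genes, DYNC1LI1 alone passed the threshold (3.57%, beside 4.69% of all genes). This light intermediate chain links dynein to its cargo adaptors. It read 10.32, 10.40 and 10.42 without and 10.72, 10.83 and 10.94 with selamectin (log2 difference 0.45 ± 0.09 SE, limma adjusted p = 0.019). Apart from EML2, the 8 list genes that passed each missed the threshold without untreated array 1, without untreated array 3 and without selamectin array 2. Each also missed it when all transcript clusters were tested.

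**Figure D3:**
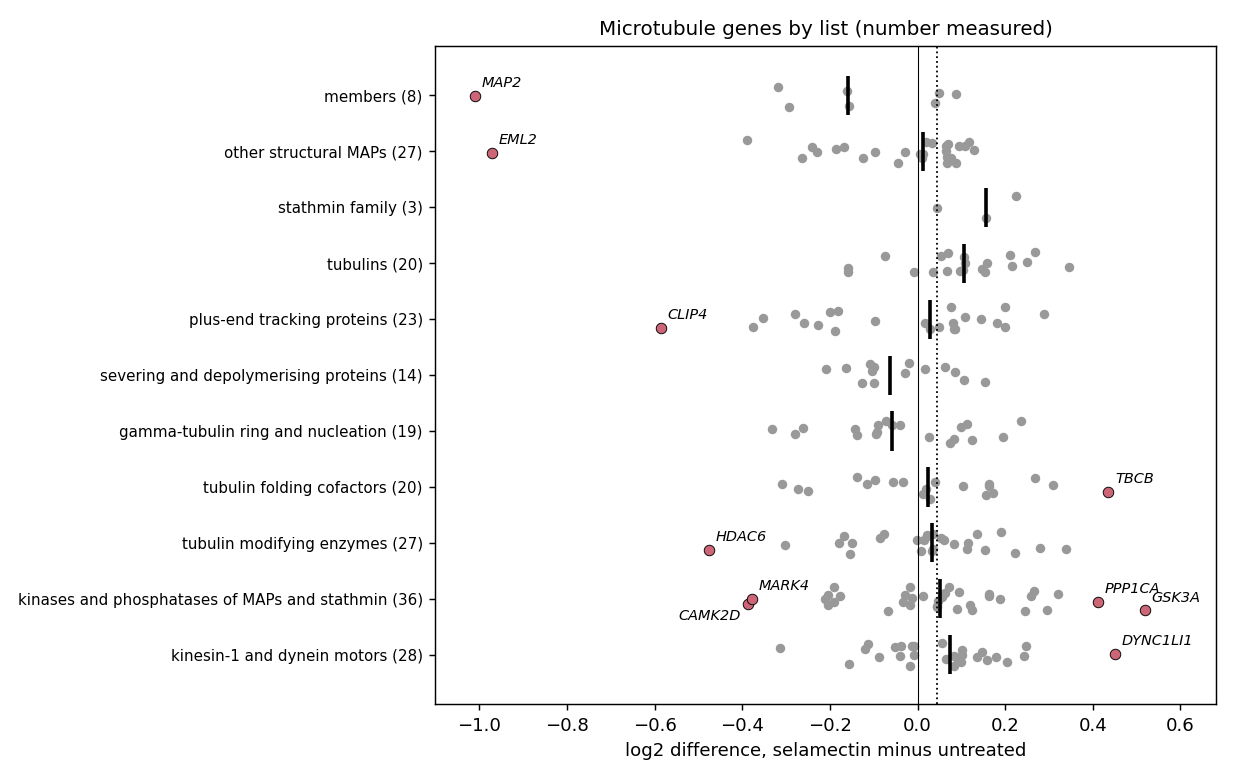
Log2 difference, selamectin minus untreated, of every measured gene of the 8 and of the 10 lists, 1 point per gene with a random vertical offset. Red points with names passed the adjusted threshold in limma, thick bars are list medians, and the dotted line is the median of all genes, 0.04. MAP2 at -1.01 and EML2 at -0.97 stand at the left of the other points.

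MAP2 is known as a marker of neurons, so other neuronal markers were read beside it. Of 23 measured, among them neurofilament, synaptic and RNA-binding proteins, none passed the threshold with limma. Without adjustment, p was under 0.05 for 5 (21.7%, beside 19.9% of all genes), of which 4 lay higher and 1 lower. The difference was positive for 17 of the 23 (73.9%, beside 63% of all genes), with a median of 0.11. INA, the internexin of intermediate filaments, had the smallest p, at a log2 difference of 0.32 (limma adjusted p = 0.090). The 1 lower gene was DLG4, at -0.35 (limma adjusted p = 0.11). The median level of the 23 was 6.96, beside 8.24 for all genes, so most of the list was dim. The mean level of the 23 ranged from 7.13 to 7.17 on the untreated arrays and from 7.18 to 7.26 on the selamectin arrays, so the list mean lay higher in the group where MAP2 lay lower. Within the selamectin group both were lowest on array 3, where the list mean was 7.18. Its part in the MAP2 result was not tested.

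REST is a repressor of neuronal genes that recruits SIN3 and CoREST complexes. Of 13 genes for REST and its cofactors none passed the threshold with limma, and 3 were higher and none lower at an unadjusted p under 0.05 (23.1%, beside 19.9% of all genes). HDAC1, a deacetylase of both complexes, had the smallest p (log2 difference 0.29, limma adjusted p = 0.10). REST itself, named with its value already seen, read 10.37, 10.01 and 10.18 without and 10.18, 10.04 and 10.20 with selamectin, so its groups overlapped. SIN3A differed by 0.10 and SIN3B by 0.03, both named in the same way. The list mean ranged from 10.24 to 10.38 without and from 10.41 to 10.47 with selamectin, and its part in the MAP2 result was not tested.

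Marker lists of the line and of other cells were read as a check of the label. The mean of 11 mesenchymal and basal markers of MDA-MB-231 ranged from 10.90 to 10.99 without and from 10.89 to 11.03 with selamectin. At an unadjusted p under 0.05, 3 of the 11 were higher and 3 lower, 54.5% in all beside 19.9% of all genes. CD44, a surface glycoprotein of such cells, rose by 0.42 (limma adjusted p = 0.020), and SPARC, a matrix protein, fell by 0.45 (limma adjusted p = 0.033). These calls are 18.2% of the list, beside 4.69% of all genes. CD44 missed the threshold in 4 and SPARC in 5 of the 6 fits without 1 array, of which CD44 passed without untreated array 2 or selamectin array 3 and SPARC without selamectin array 1. The means of the leukocyte (9 genes), endothelial (8) and epithelial or luminal (13) lists overlapped between the groups, at 6.36 to 6.52, 6.93 to 7.08 and 8.55 to 8.62 over all arrays. None of their genes passed with limma, and at an unadjusted p under 0.05 no leukocyte gene, 2 endothelial genes (25%) and 2 epithelial genes (15.4%) did, beside 19.9% of all genes. Of the 2 endothelial genes 1 was higher and 1 lower, and both epithelial genes were lower. The smallest p in each list belonged to MS4A1 (log2 difference -0.11, limma adjusted p = 0.35), CDH5 (-0.59, 0.067) and CDH1 (-0.26, 0.064). These named genes had negative differences. Yet the difference was positive for 6 of the 9 leukocyte, 7 of the 8 endothelial and 7 of the 13 epithelial genes (66.7%, 87.5% and 53.8%, beside 63% of all genes). Of 10 fibroblast markers 1 passed (10%, beside 4.69% of all genes). It was PDGFRB, which rose by 0.34 (limma adjusted p = 0.040), a call that ended in each of the 6 fits without 1 array. The list mean ranged from 6.66 to 6.77 without and from 6.74 to 6.84 with selamectin. The table gives no detection call, so no marker is called absent.

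The genes nearest to MAP2 in pattern were found by the distance between log2 values over the 6 arrays after each gene was centred on its own mean. The points share the contrast of the groups, so nearness is a description. IMMP2L, a peptidase of the inner mitochondrial membrane, was nearest, at a distance of 0.26 and a correlation of 0.99 over 6 arrays. It read 8.72, 8.27 and 8.58 without and 7.87, 7.82 and 7.29 with selamectin, with array 2 the lowest of the untreated and array 3 the lowest of the selamectin arrays, as for MAP2.

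HSPA2, a member of the HSP70 chaperone family, came next at a distance of 0.36, with 10.82, 10.63 and 10.70 without and 9.91, 9.68 and 9.24 with selamectin. PTGR2, a prostaglandin reductase (distance 0.37), KLHL24, an adaptor of a ubiquitin ligase (0.41), and RGS2, a regulator of G-protein signalling (0.43), followed. Their log2 differences were -0.84, -0.91 and -0.85. Of the 5, KLHL24 did not pass the threshold (limma adjusted p = 0.059), and all 5 were lowest on selamectin array 3. KLHL24 differed by -0.55 without that array, and it passed in 5 of the 16 other settings, that one and the fit without selamectin array 1 among them. IMMP2L missed the threshold without untreated array 1 or untreated array 3, and PTGR2 and RGS2 without untreated array 1. IMMP2L, PTGR2 and RGS2 also missed it when all transcript clusters were tested. EML2, with a like difference, was also lowest on selamectin array 3, but untreated array 2 was the highest of its untreated arrays and the lowest of those for MAP2.

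**Figure D4:**
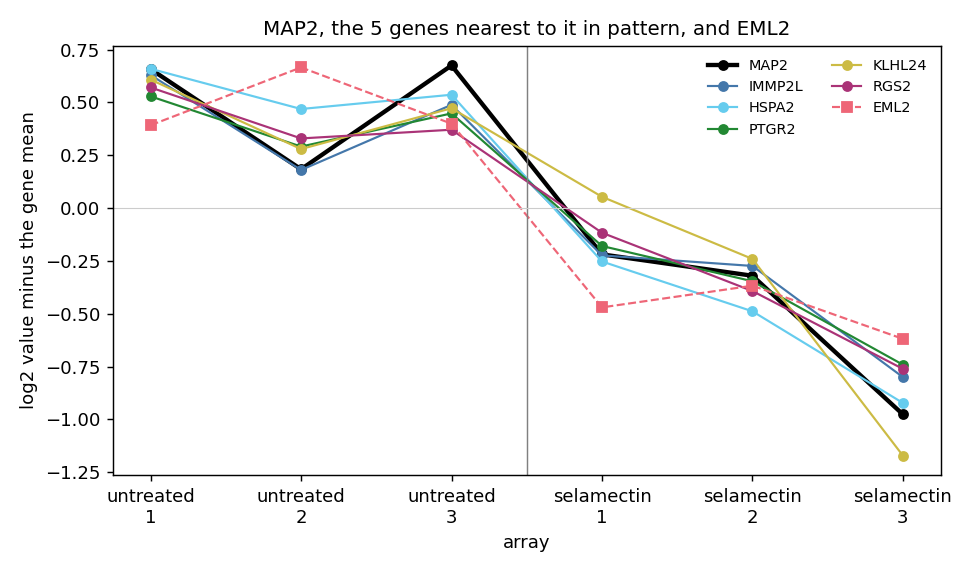
Log2 value minus the gene's mean over 6 arrays for MAP2 (black), the 5 genes nearest to it in pattern, and EML2 (dashed). Lines only join the points of a gene, as arrays of a group have no order. The 5 genes follow MAP2 to its lowest point on selamectin array 3, where EML2 is lowest too, while EML2 is highest on untreated array 2.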

How the data were processed

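RNA of 6 cultures of MDA-MB-231 cells was measured on Affymetrix whole-transcript arrays. The authors deposited 1 value per transcript cluster and array, taken here as log2 values of RMA, which the submitters' processing notes name with Affymetrix Expression Console and the Transcriptome Analysis Console. No log base is stated, and the genome build of the array was not given in the sources used here. Of 33297 clusters, 19460 had 1 gene symbol, 1754 several and 12083 none, and the brightest cluster per symbol gave 18417 genes. Of the 19460, 19429 matched RefSeq genes by Entrez number with no symbol changed. The groups were compared with limma 3.58.1 in R 4.3.3 (lmFit, eBayes with an intensity trend, Benjamini-Hochberg over all genes, adjusted p under 0.05, no filter, no block). The fit was also run on simulated independent normal values, which cannot show how far the calls on these arrays hold. Genes named outside the 8 were, in each list, up to 4 that passed or else the one with the smallest p, the 5 nearest to MAP2 and the genes beside its rank among falls. REST, SIN3A, SIN3B and DLG4 were added outside this rule with their values seen. Members and lists were chosen with earlier results of these data known. The 16 alternative settings cover clusters, filters, normalization, weights, the replicate number and leaving out each array.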

Additional observations from a re-analysis of the deposited data

How the results depend on the processing

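The directions of MAP2, MAP4, MAPT, MAP1A, MAP1S and MAP7 held in every one of the 16 alternative settings in which each was measured, whereas MAP1B turned under a second quantile normalization (-0.0077) and STMN1 moved to 0.0243 when its clusters were averaged. Over all genes, leaving out 1 array gave 100 to 464 genes called lower and 76 to 685 called higher, against 420 and 444. With array weights the counts were 1464 lower and 1822 higher. That fit gave untreated array 3 a weight of 5.11 and the other arrays weights from 0.45 to 1.22. With all transcript clusters tested the counts were 145 lower and 104 higher. For the 217 genes of the microtubule lists (4 higher, 5 lower), leaving out 1 array gave 0 to 4 higher and 1 to 6 lower, array weights gave 17 higher and 19 lower, all clusters 0 higher and 1 lower, and a second quantile normalization 2 higher. The causes were not tested.

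Replicate numbers are shared between the groups. Over all genes, the deviations of same-numbered arrays from their group means had correlations of -0.01, 0.24 and -0.14 for numbers 1, 2 and 3. Within a group the deviations cancel, so these values depend on one another. They cannot decide whether same-numbered arrays share more than a number. With the replicate block, 343 genes were called lower and 307 higher, and 3 list genes lower. The number of arrays and, for MAP1A and MAP1B, low signal limit these values.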
